A study of Mus musculus with 48 samples.

Results

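Transforming growth factor β (TGF-β), a secreted cytokine, was compared with no added cytokine in NMM cells, a mouse melanoma line labelled NRAS mutated and grown in vitro. The members were the libraries whose stimulus label was 10 ng/ml TGF-β and those labelled unstimulated. There were 4 of each, 1 after 2, 6, 12 and 24 h, so that 8 of the 48 bulk RNA-seq libraries of the series were compared and every TGF-β library had an unstimulated partner of its own duration. All 8 came from the same line, kept in IMDM with fetal calf serum, and were made from poly(A) RNA with a stranded kit. Another 8 libraries, from cells given 6000 U/ml interleukin-2 (IL-2) or 2 ng/ml lymphotoxin A1 B2 for the same durations, served together with the unstimulated ones as the controls of a test at each single duration. The remaining libraries, from other cytokines and doses, entered a fit over all 48. The series is a model of 1 cell line, and the TGF-β isoform is not given in the sources used here. The labels do not say whether libraries came from separate cultures, so the p-values are not known to measure a spread between cultures. For the mean over durations, the spread takes in how stimulus effects changed with duration over all 48 libraries. At single durations it is the spread between the control libraries, which may be technical.

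TGF-β brings together a type II and a type I receptor kinase, and the type I receptor TGFBR1 then phosphorylates SMAD2 and SMAD3. With SMAD4 these enter the nucleus and bind DNA at short elements that hold the letters CAGAC. Their targets include matrix genes and inhibitors of the pathway itself, among them Smad7, Skil and Pmepa1. Bone morphogenetic proteins (BMPs), relatives of TGF-β, signal through other SMADs that bind GC-rich elements and induce the Id genes, whose products block basic helix-loop-helix transcription factors. Interferons act through another route: type I and type II interferon each activate JAK kinases and STAT transcription factors, type I together with IRF9, and both induce antiviral genes and the genes that present peptides on MHC class I. In tumours TGF-β is known for matrix production, invasion and suppression of immune responses.

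Sequencing gave 6046675 to 7867899 counts per library in these 8, of which mitochondrial genes took 0.786 to 1.4%. Levels of genes and of gene lists are given as CPM over TMM-scaled library sizes, while the sums of marker genes in this paragraph use the unscaled totals, on which a single count corresponds to 0.127 to 0.165 CPM. Differences are log2 (TGF-β over control) from edgeR's quasi-likelihood test with Benjamini-Hochberg adjustment, and a gene is called at an adjusted p below 0.05. Markers of T and natural killer cells summed to at most 1.09 CPM in any of the 8 libraries, with 10 of 13 genes at 0 in all of them. Of the 23 pigment-cell genes, 10 were at 0 in all 8 libraries and 8 reached 1 CPM in at least 1 of them. Sox10, Tyr, Tyrp1, Dct and Mlana were at or near 0, while Mitf and Pax3 were read. That list summed to 391 to 760 CPM with TGF-β and 567 to 776 CPM without, to which Gpnmb, a glycoprotein of melanosomes and lysosomes, gave 10191 counts over the 4 TGF-β and 13358 over the 4 unstimulated libraries. Met gave 3360 and 2873, Cdk2 1771 and 1683, Pax3 1238 and 1163, and Mitf 169 and 185 (at most 8.025 CPM). Fibroblast markers summed to 341 to 369 CPM with TGF-β and 407 to 577 CPM without (mostly Col3a1), and endothelial markers to 5.85 to 27.7 and 4.26 to 7.89 CPM (mostly Cdh5). Their part in the results was not tested.

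To find genes that differed over the whole course, the 4 TGF-β libraries were compared with the 4 unstimulated ones within duration. Of 12203 genes tested, 613 were higher (5.02%) and 397 lower (3.25%). At least 2-fold differences were seen in 129 higher and 66 lower genes. The sign was the same at all 4 durations for 571 genes called higher and for 363 called lower. The 2 h and 6 h libraries carry the same 24 index sequences as the 12 h and 24 h libraries, and whether they were sequenced apart is not stated. The 2 h and 6 h libraries alone called 347 genes and the 12 h and 24 h libraries alone 1130, against 1010 together. At single durations the TGF-β library was set against the 3 control libraries, with its own variation taken from theirs. This called 562 genes higher (4.61%) and 507 lower (4.15%) at 2 h, 748 (6.13%) and 496 (4.06%) at 6 h, 773 (6.33%) and 750 (6.15%) at 12 h, and 1028 (8.42%) and 1054 (8.64%) at 24 h. Genes lower by at least 2-fold numbered 44, 82, 157 and 329 at the successive durations, and genes higher by at least 2-fold 83, 154, 134 and 177. Against the mean of the 10 other cytokine groups, 1631 genes were higher (13.4%) and 1504 lower (12.3%).

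Genes called at 2 h were taken as early, and genes called at 24 h without a call at 2 h as late. These names rest on calls alone, and a missing call at 2 h does not show that the difference changed. The test of a change with duration, described below, called 182 genes in all. Of the 562 genes higher at 2 h, 310 (55.2%) were also higher at 24 h, where they made up 30.2% of the genes called higher, and 245 were higher at all 4 durations. Of the 507 genes lower at 2 h, 149 (29.4%) were lower at 24 h, where they were 14.1% of the lower genes, and 101 were lower throughout. The late genes numbered 690 higher and 890 lower. A small number changed direction: 15 early higher genes were lower at 24 h and 28 early lower genes were higher.

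**Figure D1:**
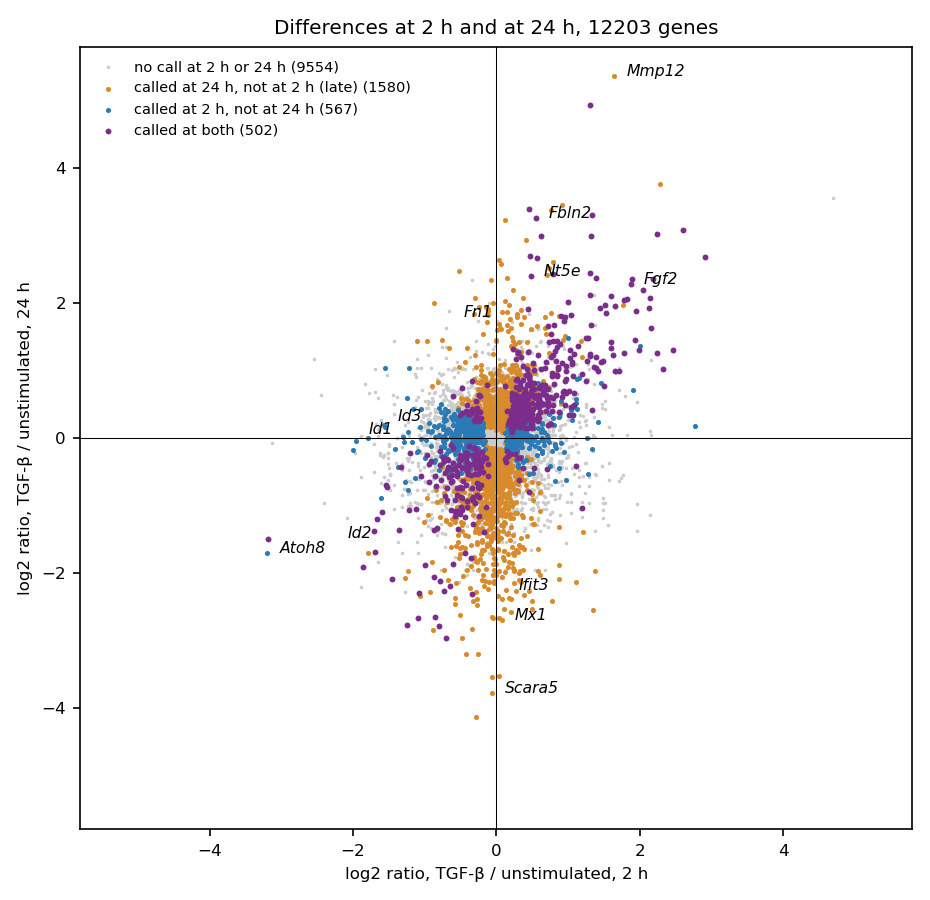
Log2 ratio of the TGF-β library to the unstimulated library at 2 h (horizontal axis) and 24 h (vertical axis), 1 point per gene of the 12203 tested, coloured by whether the gene was called at 2 h only (567), at 24 h only (1580), at both (502) or at neither (9554). Fgf2 lies to the upper right, Mmp12 and Fbln2 at the top, Id1 and Id3 to the left near a 24 h ratio of 0, and Scara5, Mx1 and Ifit3 at the bottom near a 2 h ratio of 0.

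Jag1, a Notch ligand, is named here after its values were seen, because its mean difference had the smallest p of all genes. It had 348, 436, 436 and 614 CPM with TGF-β at 2, 6, 12 and 24 h and 93.1, 88.7, 98.7 and 119 CPM without, and its lowest TGF-β level was above its highest unstimulated one. The difference was 1.87 ± 0.06 (SE; 1 against 3 libraries, adjusted p = 7.09e-25) at 2 h and 2.41 ± 0.06 at 24 h. The mean over the 4 pairs was 2.19 ± 0.11 (adjusted p = 6.45e-17), and against the other cytokines Jag1 stood at 2.55.

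Of the 35 genes listed as direct targets, 31 could be tested, and 18 were higher and 0 lower over the course (all genes: 5.02% and 3.25%), with a median of 0.54 against -0.0058 for all genes; DESeq2 gave the same counts of 18 and 0. By duration 20, 17, 19 and 22 of them were higher (all genes: 4.61, 6.13, 6.33 and 8.42%), while 1, 1, 3 and 3 were lower (all genes: 4.15, 4.06, 6.15 and 8.64%). Ctgf (Ccn2), a matricellular growth factor, had 280, 127, 22.7 and 16 CPM with TGF-β and 116, 29.6, 8.36 and 5.57 CPM without, so that its difference was 1.38 at 2 h and 1.85 at 24 h while the level itself dropped in both. Runx1, a transcription factor, had its highest TGF-β level at 2 h, 307 CPM against 128 CPM, and 207 against 115 CPM at 24 h. Tgif1, a SMAD corepressor, and Klf10, a TGF-β-induced zinc finger factor, were higher by 0.45 and 0.54 on the mean. Col1a1 was below the level that could be tested, with 32 counts over the 4 TGF-β libraries and 10 over the unstimulated ones, as was the metalloprotease Adam12, with 175 and 6 counts.

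The inhibitors that TGF-β is known to induce against itself were part of this early group. Smad7, which blocks the type I receptor, had 216, 155, 117 and 129 CPM with TGF-β and 90.3, 64.8, 48.2 and 46.1 CPM without, a mean difference of 1.32 ± 0.11 (adjusted p = 1.11e-11). Pmepa1, which keeps SMAD2 and SMAD3 from the receptor, had 358, 381, 276 and 289 CPM against 173, 113, 112 and 81.1 CPM, and was higher at all 4 durations. Skil, a corepressor that binds SMADs, was highest at 2 h, 482 against 227 CPM (1.05 ± 0.06, adjusted p = 3.38e-18), and stood at 228 against 144 CPM at 24 h (0.65). In these 3 genes the TGF-β library was above its unstimulated partner at every duration. Of the 17 feedback genes tested, 9 were higher and 0 lower on the mean (all genes: 5.02% and 3.25%), with a median of 0.22, among them Ski, Smurf2 and Ldlrad4. DESeq2 gave the same 9 and 0. Smurf1 (0.22) lost its call without the TGF-β 2 h (0.17) or the unstimulated 6 h library (0.19). Ldlrad4, which sequesters SMADs, was late within the group by these calls: 6.99 against 5.45 CPM at 2 h, with no call, and 18.6 against 5.57 CPM at 24 h. Its change with duration was not called by the slope test.

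**Figure D2:**
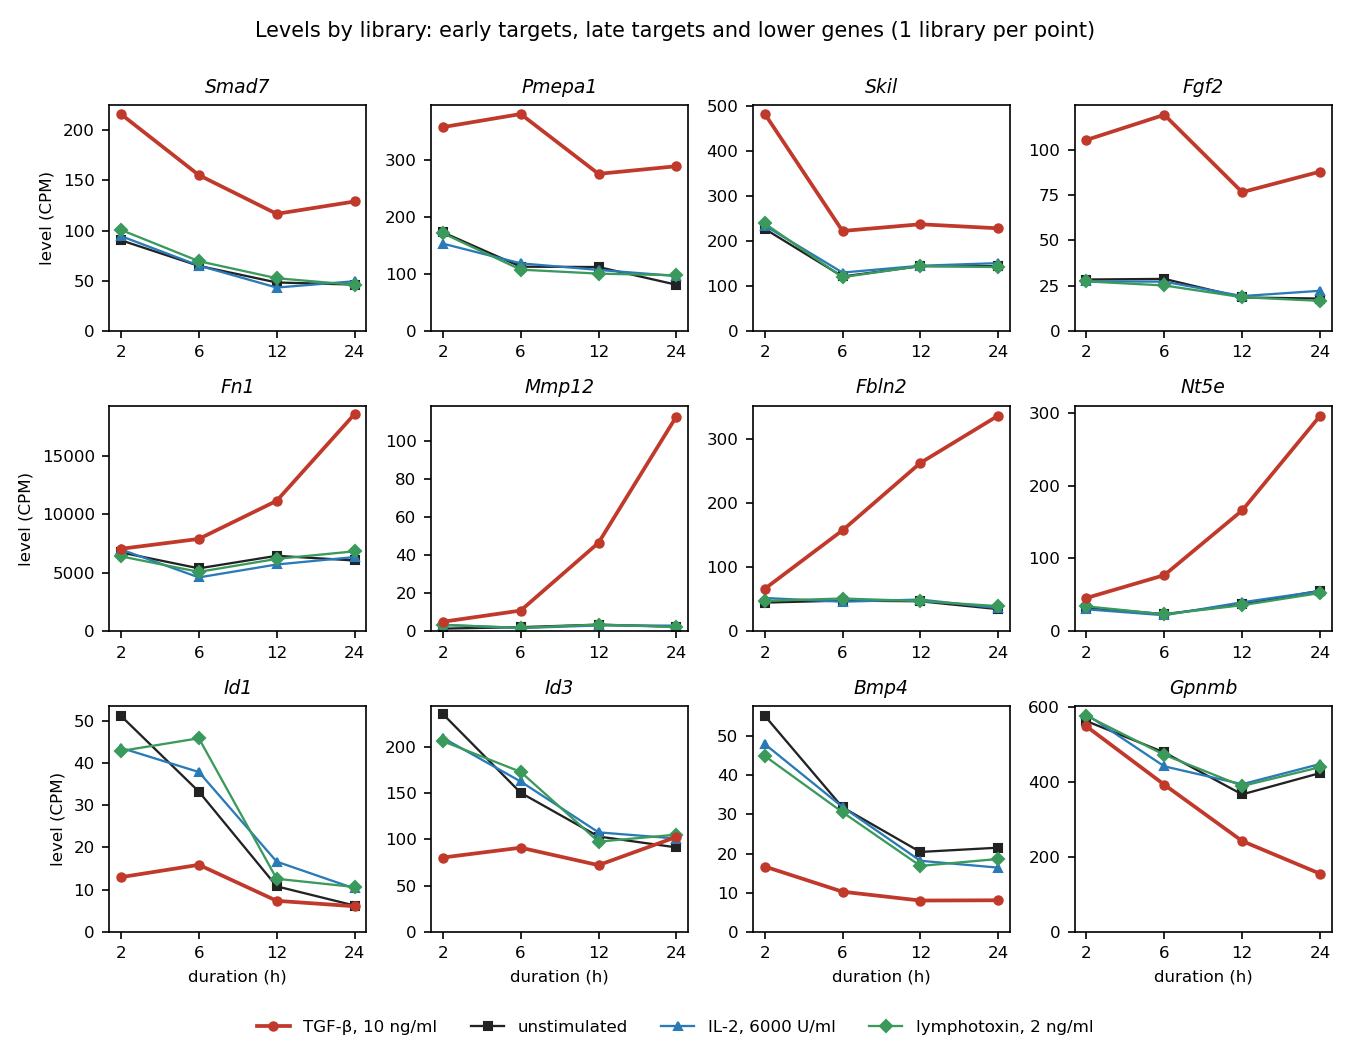
Level in CPM (vertical axis) against hours of exposure (horizontal axis) for 12 genes in cells given TGF-β, left unstimulated, or given IL-2 or lymphotoxin, 1 library per point. Smad7, Pmepa1, Skil and Fgf2 were apart from the 3 controls at 2 h; Fn1, Mmp12, Fbln2 and Nt5e separated with time; Id1 and Id3 were low at 2 h and met the unstimulated level by 24 h, Bmp4 stayed low, and Gpnmb dropped late.

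Fgf2, fibroblast growth factor 2, had 106, 120, 76.7 and 88.1 CPM with TGF-β and 28.4, 28.8, 18.5 and 17.9 CPM without (mean difference 2.07 ± 0.20, adjusted p = 1.36e-09). Cxcr4, the receptor of the chemokine CXCL12, had 35.1 against 6.75 CPM at 2 h and 98.4 against 48.5 CPM at 24 h, so that both series were higher late than early. Pdgfb, a platelet-derived growth factor chain, had 56.7 against 17.1 CPM at 2 h, and Vegfa, the angiogenic factor, was higher by 1.05 ± 0.13 on the mean (adjusted p = 2.65e-07). Genes also fell early: Ahr, the aryl hydrocarbon receptor, had 48.9, 30.5, 14.3 and 12.0 CPM with TGF-β and 178, 76.4, 48.2 and 45.6 CPM without, a mean difference of -1.68 ± 0.23 (adjusted p = 1.8e-06). Fst and Fstl3, both secreted binders of activin, moved in opposite directions, Fst by -1.45 ± 0.18 (adjusted p = 3.6e-07) and Fstl3 by 1.63 ± 0.22 (adjusted p = 7.77e-07).

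The bases upstream of Jag1 and of the collagen gene Col7a1, both called at every duration, are shown because SMAD3 and SMAD4 bind the letters CAGAC. They come from RefSeq (GRCm38.p6) and are the 250 bases before the gene's start, 5′ to 3′ on its strand. The Jag1 window is chr2:137116521-137116770 on the minus strand and the Col7a1 window chr9:108953336-108953585 on the plus strand; capitals mark CAGAC or its reverse complement.
Jag1: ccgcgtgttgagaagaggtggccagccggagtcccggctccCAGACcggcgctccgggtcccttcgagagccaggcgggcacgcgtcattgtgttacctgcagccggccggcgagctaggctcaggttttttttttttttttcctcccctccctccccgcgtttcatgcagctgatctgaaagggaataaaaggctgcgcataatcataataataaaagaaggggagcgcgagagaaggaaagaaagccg
Col7a1: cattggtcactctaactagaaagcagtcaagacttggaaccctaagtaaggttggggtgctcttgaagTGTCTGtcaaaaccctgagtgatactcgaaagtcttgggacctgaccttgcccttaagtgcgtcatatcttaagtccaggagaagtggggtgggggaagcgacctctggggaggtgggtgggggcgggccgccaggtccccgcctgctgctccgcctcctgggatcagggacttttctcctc
Jag1 has the match starting at -209 and Col7a1 at -181, where it is part of CAGACA at -182. Of all 32851 windows in the table, 42.2% hold CAGAC on either strand and 17.1% hold CAGACA, a longer form of the same letters. Among windows of genes higher at 2 h the shares were 42.1 and 14.4%, and among those lower at 2 h 40.2 and 14.2%, so the letters were about as common in the windows of all genes. For TGACTCA or TGAGTCA, the AP-1 element, the shares were 4.46% of all windows, 4.79% for genes higher and 3.3% for genes lower at 2 h.

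The BMP branch moved the other way at 2 h. Of 14 BMP and ID genes tested, 8 were lower and 2 higher at 2 h (all genes: 4.15% and 4.61%), with a median of -0.76. At 24 h 2 were lower (Id2 and Bmp4) and 1 higher (Grem1), beside 8.64% and 8.42% of all genes. Over the course 4 were lower and 0 higher (all genes: 3.25% and 5.02%), with a median of -0.36. Bmp4, a BMP ligand, had 16.7, 10.3, 8.00 and 8.07 CPM with TGF-β and 55.3, 31.8, 20.4 and 21.5 CPM without, the groups not overlapping (mean difference -1.55 ± 0.11, adjusted p = 2.74e-13). Atoh8, a helix-loop-helix factor downstream of BMP signalling, had 1.42 against 15.2 CPM at 2 h (-3.33 ± 0.33, adjusted p = 4.25e-10) and 1.87 against 9.62 CPM at 6 h. The 2 higher genes at 2 h were the homeobox factors Dlx2 (0.80, adjusted p = 0.00129) and Msx2 (0.94, adjusted p = 0.0358); the Msx2 call was lost without the IL-2 (0.69) or the lymphotoxin library (0.90), and both calls were lost under DESeq2.

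The Id genes were not all called at the same durations, and a difference between them in how long the change lasted was not tested. Id1 had 12.9, 15.9, 7.34 and 6.05 CPM with TGF-β and 51.1, 33.2, 10.8 and 6.22 CPM without. It fell at 2 h (-1.83 ± 0.28, adjusted p = 0.00137) and 6 h (-1.30, adjusted p = 0.00833), but at 24 h the difference was -0.59 ± 0.43 (adjusted p = 0.448; -0.78, adjusted p = 0.026, without the unstimulated library). Id2 had 43.8, 13.1, 3.80 and 3.50 CPM against 140, 33.4, 9.16 and 8.42 CPM, and was called at 2 h (-1.65 ± 0.10, adjusted p = 4.66e-16) and at 24 h (-1.05 ± 0.28, adjusted p = 0.00507). In Id3 the unstimulated level came down to meet the TGF-β level: it was 236, 150, 103 and 91.3 CPM without and 80.4, 91.0, 72.1 and 103 CPM with TGF-β. The Id3 difference was -1.43 ± 0.09 at 2 h (adjusted p = 2.82e-12) and 0.05 ± 0.09 at 24 h (adjusted p = 0.807). Its change per doubling of hours was 0.46 ± 0.07 (adjusted p = 0.000114), and 0.39 (adjusted p = 0.217) without the unstimulated 2 h library. The windows of Id3 (chr4:136143572-136143821, plus strand) and Id2 (chr12:25096093-25096342, minus strand) are printed because these genes fell at 2 h and are known targets of the BMP branch; capitals mark CAGAC in Id3 and, in Id2, GGCGCC, a GC-rich element that BMP SMADs bind.
Id3: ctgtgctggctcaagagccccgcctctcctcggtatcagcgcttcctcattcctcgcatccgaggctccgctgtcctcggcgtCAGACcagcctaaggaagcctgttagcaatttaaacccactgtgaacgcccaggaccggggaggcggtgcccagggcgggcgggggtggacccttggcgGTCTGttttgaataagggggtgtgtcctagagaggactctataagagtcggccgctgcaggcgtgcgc
Id2: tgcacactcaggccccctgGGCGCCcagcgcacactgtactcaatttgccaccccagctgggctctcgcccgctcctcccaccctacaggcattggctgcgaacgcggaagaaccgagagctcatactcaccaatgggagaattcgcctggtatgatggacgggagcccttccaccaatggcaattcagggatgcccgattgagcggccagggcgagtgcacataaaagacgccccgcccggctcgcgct
Id3 holds CAGAC at -167 and -68 and no GGCGCC, and Id2 holds GGCGCC at -231 and no CAGAC. The letters GGCGCC were in 9.59% of all windows. They were in 16.2% of those of genes higher at 2 h and 15.5% of those of genes lower at 2 h, about as common for both directions. All windows, here and for the other motifs, include genes that were not tested, and no share was taken over the tested genes alone.

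**Figure D3:**
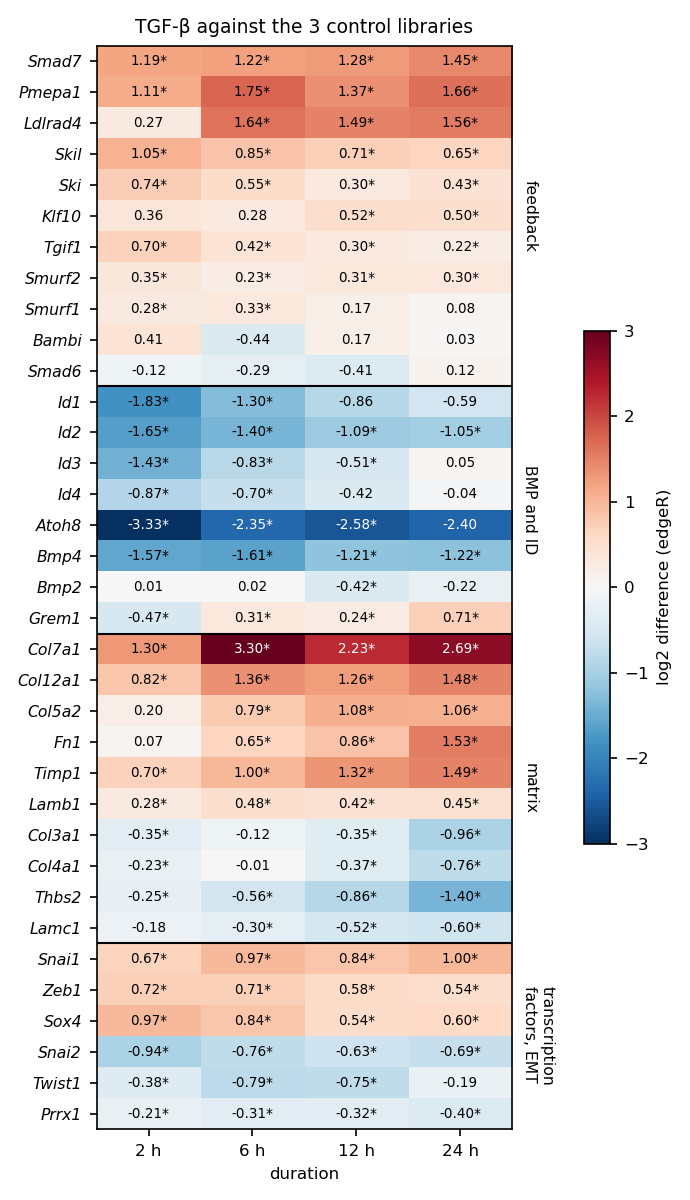
Log2 difference between the TGF-β library and the 3 control libraries (colour and printed value, the colour cut off at 3 in either direction) for pathway genes (vertical axis) at each duration in hours (horizontal axis), with a star where the adjusted p was below 0.05. Smad7, Pmepa1 and Skil are red at every duration, Id1, Id3 and Id4 fade from blue at 2 h to pale at 24 h, and in the matrix block Fn1 goes from 0.07 to 1.53 and Thbs2 from -0.25 to -1.40.

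Of 44 matrix genes tested, 12 were higher and 2 lower over the course (all genes: 5.02% and 3.25%), with a median of 0.09. At 2 h 10 were higher and 6 lower (all genes: 4.61% and 4.15%), and at 24 h 16 were higher and 12 lower (all genes: 8.42% and 8.64%). Outside that list, Mmp12 and Fbln2 were among the genes named for their size. Mmp12, macrophage elastase, a matrix protease, had 5.05, 10.9, 46.6 and 113 CPM with TGF-β and 1.44, 2.22, 3.54 and 2.46 CPM without. It was not called at 2 h (0.91 ± 0.32, adjusted p = 0.0674) and was 5.45 ± 0.15 higher at 24 h (adjusted p = 1.02e-28). Fbln2, fibulin 2 of elastic fibres and basement membranes, had 66.1, 157, 262 and 336 CPM with TGF-β against 44.8, 47.9, 46.8 and 34.6 CPM. Its difference went from 0.47 ± 0.09 at 2 h to 3.19 ± 0.07 at 24 h, and its change per doubling of hours, 0.76 ± 0.08 (adjusted p = 4.59e-07), was 0.75 to 0.77 with any 1 of the 8 libraries left out. Fn1, fibronectin, had 7056, 7904, 11160 and 18570 CPM with TGF-β and 6746, 5387, 6460 and 6058 CPM without. It showed no call at 2 h (0.07 ± 0.10, adjusted p = 0.763) and a rise of 1.53 ± 0.09 at 24 h (adjusted p = 6.29e-07).

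Col7a1, the anchoring-fibril collagen whose promoter is shown above, was among the earliest of the matrix genes: 55.4, 136, 159 and 214 CPM with TGF-β, 22.1, 12.2, 30.9 and 26.7 CPM without, a mean difference of 2.63 ± 0.31 (adjusted p = 1.65e-07). Lox, a collagen cross-linking enzyme, was higher at 2 h, 74.7 against 31 CPM at 2 h, and had 9.95 against 9.98 CPM at 24 h, where its difference was 0.10 (adjusted p = 0.816). Timp1, a metalloprotease inhibitor, was higher by 1.14 ± 0.15 on the mean (adjusted p = 7.77e-07), and Timp3 and Tgfbi by 1.23 and 0.95. Other matrix genes fell late. Thbs2, thrombospondin 2, had 2234, 1467, 1180 and 758 CPM with TGF-β and 2524, 2227, 2127 and 1994 CPM without, -1.40 ± 0.06 at 24 h (adjusted p = 1.8e-22). Its relative Thbs1, an activator of latent TGF-β, was higher, by 0.99 ± 0.21 on the mean (adjusted p = 0.00159). At 24 h the collagens Col3a1 (-0.96), Col4a1 (-0.76), Col4a2 (-0.73), Col6a1 (-0.85) and Col6a2 (-1.14) were all lower, so the collagens did not move together; DESeq2 did not call Col6a2.

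Integrins are the receptors for these matrix proteins. Of 25 integrin and cytoskeleton genes tested, 11 were higher and 1 lower over the course (all genes: 5.02% and 3.25%), with a median of 0.24, and 13 were higher and 2 lower at 24 h (all genes: 8.42% and 8.64%). Itga5, part of the fibronectin receptor, had 189, 209, 256 and 345 CPM with TGF-β and 96.2, 118, 139 and 164 CPM without (0.94 ± 0.10, adjusted p = 2.12e-09). Its partner Itgb1 had 2105 to 2407 CPM with and 1202 to 1581 CPM without TGF-β (0.72 ± 0.07, adjusted p = 1.9e-09). Itga2, a collagen receptor chain, reached 198 against 36.5 CPM at 24 h (1.97 ± 0.32 on the mean, adjusted p = 3.42e-05). Nt5e, the ectoenzyme CD73 that makes extracellular adenosine, was called at 2 h (0.50) and widened to 2.44 ± 0.07 at 24 h, with 45.8, 77.2, 166 and 296 CPM against 32.7, 23.6, 37.0 and 55.8 CPM. Gng11, a G protein subunit, went from 33.3 to 144 CPM with TGF-β and lay between 10.1 and 14.3 CPM without (2.58 ± 0.21 on the mean, adjusted p = 1.23e-11).

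The ligands and receptors of the pathway were examined as well. Of 18 ligand and latency genes tested, 4 were higher and 3 lower over the course, and of 11 receptor genes 3 were higher and 1 lower (all genes: 5.02% and 3.25%). Besides Fst, the lower ligand and latency genes were Lrrc32 (-2.14), which displays latent TGF-β on the cell surface, and the integrin chain Itgb8 (-1.33), whose call was lost when any 1 of 7 of the 8 libraries was left out (-1.73 to -1.06). Tgfb3 was higher at 2 h (80.4 against 47.9 CPM) and 6 h and not at 24 h (58.6 against 61.3 CPM), while Tgfb1 was called higher at 24 h (0.65). Ltbp4, which holds latent TGF-β in the matrix, had 135 against 179 CPM at 2 h, with no call, and 444 against 176 CPM at 24 h (1.12 ± 0.12, adjusted p = 7.34e-05). The signalling receptors Tgfbr1 and Tgfbr2 were lower at 24 h, by -0.42 ± 0.07 (adjusted p = 3.47e-05) and -0.26 (adjusted p = 0.0378); the Tgfbr2 call was lost without the IL-2 library (-0.22) and under DESeq2 (-0.25). Tgfbr3, the coreceptor betaglycan, had 59.4 against 60.4 CPM at 2 h and 34.2 against 64.9 CPM at 24 h (-0.996 ± 0.101, adjusted p = 2.15e-10). Acvr1 and Bmpr2, both receptors used by BMPs, were higher by 0.56 ± 0.07 (adjusted p = 1.49e-07) and 0.51 ± 0.07 (adjusted p = 7.68e-07). The third higher gene, the coreceptor Cd109 (0.60 ± 0.15, adjusted p = 0.00755), lost its call without the TGF-β 24 h library (0.42, adjusted p = 0.0977). Inhba, an activin subunit, was called higher by 0.58 on the mean (adjusted p = 0.0183), but lost the call without the TGF-β 6 h (0.51) or 12 h library (0.54) or without the unstimulated 6 h (0.48) or 24 h library (0.55). Of 13 SMAD and cofactor genes, 2 were higher and 0 lower on the mean, Smad5 by 0.32 and Trim33 by 0.35, beside 5.02% and 3.25% of all genes.

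Transcription factors of the epithelial-mesenchymal transition did not move as a block. Of 15 genes tested, 5 were higher and 3 lower on the mean (all genes: 5.02% and 3.25%), with a median of 0.02. Snai1 was higher (0.95 ± 0.21, adjusted p = 0.00163) and Snai2 lower (-0.74 ± 0.11, adjusted p = 5.44e-06): Snai2 had 33.1, 34.2, 32.9 and 21.1 CPM with TGF-β and 63.6, 59.6, 48.1 and 33.4 CPM without. Zeb1 was higher by 0.67 ± 0.10 (adjusted p = 3.59e-06) and Twist1 lower by -0.55 ± 0.12 (adjusted p = 0.00138). The mesenchymal genes Cdh2 (0.17) and Vim (0.07) were not called. Sox4 and Sox9, both transcription factors known as TGF-β targets, were higher by 0.74 ± 0.08 (adjusted p = 5.15e-09) and 0.99 ± 0.14 (adjusted p = 2.23e-06).

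For growth arrest, the best known TGF-β response of epithelial cells, a list of cytostatic genes was counted. By duration 6, 5, 6 and 4 of them were lower (all genes: 4.15, 4.06, 6.15 and 8.64%). In the same order 1, 0, 0 and 1 were higher (all genes: 4.61, 6.13, 6.33 and 8.42%). DESeq2 called 4, 3, 7 and 2 of them lower. Of 17 cytostatic genes tested, 0 were higher (all genes: 5.02%) and 3 lower (3.25%) over the course, Id1, Id2 and the cyclin Ccnd2 (-0.32, adjusted p = 0.0155). The Ccnd2 call was lost without the TGF-β 12 h (-0.30) or 24 h (-0.27) or the unstimulated 2 h library (-0.28). Cdkn2a and Cdkn2b, the second a classical target, had 0 counts in all 48 libraries, which allows up to 3 counts in each. Cdkn1a, the inhibitor p21, was higher at 2 h (0.27, adjusted p = 0.00779) and lower at 24 h (-0.25, adjusted p = 0.016), calls that DESeq2 did not make at either time, and Myc did the reverse, with -0.30 at 2 h (adjusted p = 0.00065) and 0.35 at 24 h (adjusted p = 2.46e-05). Of 30 cell cycle genes, edgeR called 0 on the mean in either direction (2 at an unadjusted p under 0.05; DESeq2 called 0), and 0 higher and 5 lower at 24 h, with a median of -0.12. DESeq2 called 0 higher and 1 lower of them at 24 h, where edgeR called 8.64% of all genes lower. Among the 8 pigment-cell genes that could be tested, Gpnmb was the only one called on the mean: 549, 393, 243 and 155 CPM with TGF-β and 563, 479, 367 and 424 CPM without. Its difference was -0.06 at 2 h (adjusted p = 0.605) and -1.49 ± 0.07 at 24 h (adjusted p = 2.15e-21), and its change per doubling of hours, -0.37 ± 0.05 (adjusted p = 7.85e-05), kept its call without any 1 library, at -0.58 without the TGF-β 2 h and -0.24 without the TGF-β 24 h library. Of the 18 genes of the dedifferentiated melanoma state tested, 5 were higher and 2 lower on the mean (all genes: 5.02% and 3.25%); Egfr, the epidermal growth factor receptor, was among the higher (0.79), and Axl, a receptor kinase of that state, was not called.

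At 24 h the interferon genes were lower with TGF-β. Of 48 type I interferon response genes tested, 48 were lower than the 3 controls and 0 higher at 24 h (all genes: 8.64% lower). At 2 h 1 was higher (Ifitm3) and 1 lower (Trim25), beside 4.61% and 4.15% of all genes. At 6 h edgeR called 0 either way (1 at an unadjusted p under 0.05), beside 6.13% and 4.06% of all genes, and DESeq2 called 0. At 12 h 1 was higher and 4 lower, beside 6.33% and 6.15% of all genes. The median log2 ratio to the unstimulated library was 0.06, -0.06, -0.19 and -1.07 at 2, 6, 12 and 24 h, against -0.0018 for all genes at 24 h. The summed level of the 48 genes at 24 h was 6938 CPM with TGF-β and 13540, 14130 and 13390 CPM in the unstimulated, IL-2 and lymphotoxin libraries. At 12 h the sums were 16250 CPM with TGF-β and 18630, 19420 and 18450 CPM, and at 2 h 10650 CPM against 10680, 11010 and 10350 CPM, so the TGF-β library stood within the controls at 2 h and below them at 12 h and 24 h. In 47 of the 48 genes the TGF-β library was the lowest of all 12 libraries taken at 24 h. The controls were not always alike in this list: the lymphotoxin library at 6 h had a median ratio of -0.36 to the unstimulated one.

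Single genes showed the size of the difference. Ifit3 (chromosome 19: 34583531-34588731), an antiviral protein that may share reads with its near copy Ifit3b, had 247, 310, 570 and 86.0 CPM with TGF-β at 2, 6, 12 and 24 h and 224, 314, 753 and 412 CPM without; at 24 h it had 443 CPM with IL-2 and 412 CPM with lymphotoxin (-2.29 ± 0.30, adjusted p = 0.000656). Isg15 (chromosome 4: 156199424-156200818), a ubiquitin-like modifier, had 334, 315, 490 and 189 CPM with TGF-β and 351, 356, 559 and 426 CPM without (24 h: -1.12 ± 0.18, adjusted p = 0.00214). Mx1, a GTPase that blocks influenza virus, had 4.97 CPM at 24 h against 33.8, 40.8 and 39.6 CPM in the 3 controls (-2.93 ± 0.43, adjusted p = 0.00115). In each of these 3 genes both series were highest at 12 h, and the TGF-β level at 24 h was below its own 2 h level. The factors that drive the response were lower too: Stat2 with 121 CPM against 267, 271 and 285 CPM (-1.18 ± 0.17, adjusted p = 0.000892), Irf9 (-0.38) and Irf7 with 118 CPM against 267, 322 and 289 CPM (-1.31 ± 0.24, adjusted p = 0.00471). With the unstimulated library left out of the controls, Irf7 (-1.37) kept its difference and lost its call. Of 19 interferon receptor and signalling genes, 5 were lower at 24 h (all genes: 8.64%), among them Stat2, Irf9, Irf1 and Usp18, and the receptor genes Ifnar1, Ifnar2, Ifngr1 and Ifngr2 and the kinases Jak1, Jak2 and Tyk2 were not called.

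**Figure D4:**
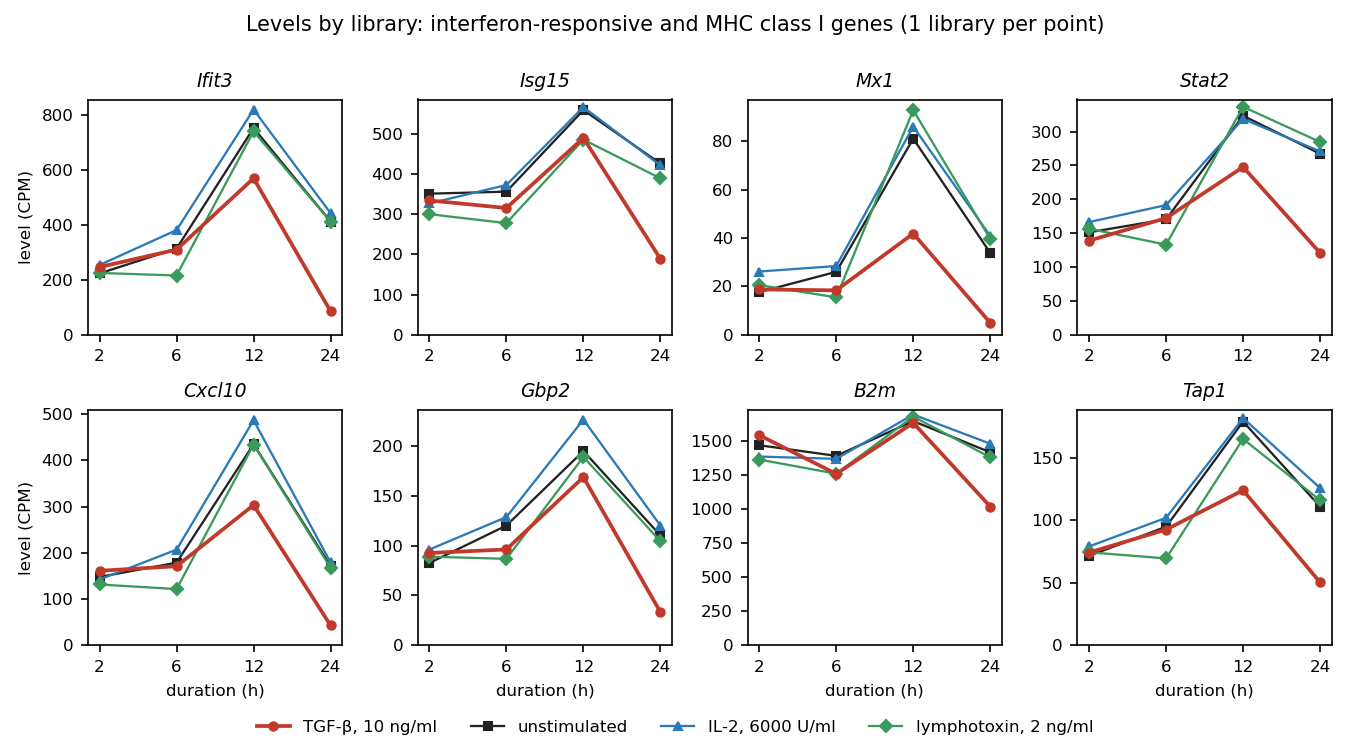
Level in CPM (vertical axis) against hours of exposure (horizontal axis) for 8 interferon-response and MHC class I genes in cells given TGF-β, left unstimulated, or given IL-2 or lymphotoxin, 1 library per point. The 4 lines are close at 2 h, the lymphotoxin point is the lowest at 6 h for Ifit3 and Cxcl10, and at 24 h the TGF-β point lies below the other 3, for Ifit3 at 86.0 CPM against 412 to 443 CPM.

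Genes of the type II interferon list and of antigen presentation followed the same course at 24 h, and the lists share some genes. Of 31 type II response genes tested, 19 were lower and 0 higher at 24 h (all genes: 8.64% lower), with a median ratio to the unstimulated library of -1.30, and 25 lay below all 3 controls. Some of the others, Cxcl11 and Icam1 among them, were at 0 in all 4 libraries at 24 h and had passed the filter on low counts through the interferon-treated libraries. Cxcl10, a chemokine that draws T cells, had 43 CPM against 171, 179 and 168 CPM (-2.003 ± 0.298, adjusted p = 0.00151), and Cd274, the checkpoint ligand PD-L1, had 10.8 CPM against 35.5, 37.8 and 34.9 CPM (-1.74 ± 0.18, adjusted p = 8.79e-09). Gbp2, a guanylate-binding protein of a family of near copies, had 33.2 CPM against 110, 120 and 104 CPM. Of 22 MHC class I genes, 19 were lower and 0 higher at 24 h, all 22 lay below the 3 controls, and the median ratio was -0.70. B2m, the invariant chain of MHC class I, had 1018 CPM against 1416, 1479 and 1379 CPM (-0.48 ± 0.06, adjusted p = 5.55e-09), and the peptide transporter Tap1 had 50.3 CPM against 111, 126 and 116 CPM (-1.22 ± 0.20, adjusted p = 0.00178). The immunoproteasome subunit Psmb8 had 16.3 CPM against 51.8, 53.0 and 49.6 CPM (-1.66), and lost its call (-1.65) when the unstimulated library was left out. Of all genes tested, 33.8% lay below all 3 controls at 24 h.

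**Figure D5:**
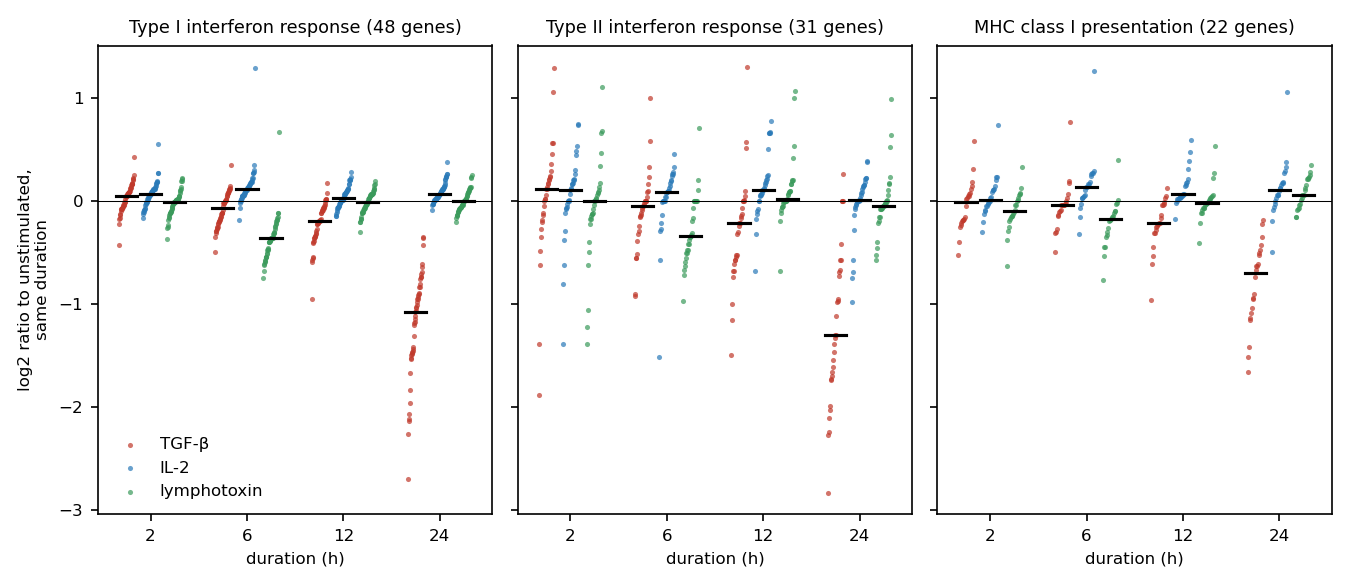
Log2 ratio to the unstimulated library of the same duration (vertical axis) for each gene of the type I, type II and MHC class I lists, by hours of exposure (horizontal axis), in the TGF-β, IL-2 and lymphotoxin libraries; black lines are medians. The TGF-β medians at 24 h are -1.07, -1.30 and -0.70, while the type I medians of IL-2 and lymphotoxin at 24 h are 0.07 and 0.0006.

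The 24 h result rests on 1 TGF-β library, with no second library of that group and duration. With the unstimulated libraries left out of the controls, 35 of the 48 type I, 13 of the 31 type II and 15 of the 22 MHC class I genes were called lower at 24 h. Of all 12203 genes tested, 876 were called lower in that fit. That library held 7300923 counts, against 7351928, 7615102 and 8071145 in its controls, and 0.844% mitochondrial counts against 0.964, 0.851 and 0.836%. Over the 4 durations together few genes of the lists passed the test (all genes: 5.02% higher and 3.25% lower). Type I had 0 genes higher and 1 lower on the mean (Trim25, -0.41, adjusted p = 0.00788, and -0.32, adjusted p = 0.0774, without the TGF-β 24 h library). In the type II and MHC class I lists edgeR called 0 either way (2 and 0 at an unadjusted p under 0.05), and DESeq2 called 0 in both. For a change with duration edgeR called 0 genes of the 3 lists (19, 7 and 2 at an unadjusted p under 0.05), and DESeq2 called 1, 1 and 0 lower. Of all genes, edgeR called only 0.697% with a positive and 0.795% with a negative change. The interferon gene Ifnb1, named after its values were seen, was read at 12, 2, 7 and 0 counts with TGF-β and at 3, 1, 7 and 6 counts without at 2, 6, 12 and 24 h. Its part in the result was not tested.

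The windows of Ifit3 (chr19:34583279-34583528, plus strand) and Isg15 (chr4:156200819-156201068, minus strand) are shown because both fell at 24 h and hold an interferon-response motif, GAAA and GAAA with any 2 bases between them, which was chosen after the calls were known. Capitals mark it on either strand, overlapping copies included, and in Ifit3 also CAGAC at -127, just before the second copy.
Ifit3: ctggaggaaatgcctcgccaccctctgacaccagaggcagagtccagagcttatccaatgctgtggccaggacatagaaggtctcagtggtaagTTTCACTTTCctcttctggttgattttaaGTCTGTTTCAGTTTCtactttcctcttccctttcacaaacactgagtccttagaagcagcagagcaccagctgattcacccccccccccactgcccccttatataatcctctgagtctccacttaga
Isg15: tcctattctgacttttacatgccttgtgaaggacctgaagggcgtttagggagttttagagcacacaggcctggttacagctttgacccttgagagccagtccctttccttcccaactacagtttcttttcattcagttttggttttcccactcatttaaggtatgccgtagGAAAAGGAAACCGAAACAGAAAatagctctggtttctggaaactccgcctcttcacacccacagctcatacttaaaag
Ifit3 has matches at -156 and -122, and Isg15 has overlapping ones at -78, -72 and -66. The motif was in 2.98% of all windows, in 26.8% of the 41 windows of type I genes and 47.8% of the 23 of type II genes, and in 7.13% of windows of genes lower at 24 h against 1.96% of those of genes higher. These shares describe letters within the windows and not binding.

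The change in the difference with time was also fitted per gene as a slope over doublings of hours. Of 12203 genes, 85 had a positive slope (0.697%) and 97 a negative one (0.795%). Of the 85, 74 were higher at 24 h and 19 lower at 2 h (all genes: 8.42% and 4.15%). Of the 97, 88 were lower at 24 h and 13 higher at 2 h (all genes: 8.64% and 4.61%). Slopes and calls come from the same libraries, so these overlaps are no separate evidence. The count of 182 slopes depends on single libraries: it was 17 without the unstimulated 2 h library, 54 without the TGF-β 2 h, 67 without the TGF-β 24 h, 46 without the unstimulated 24 h and 220 without the TGF-β 6 h library. Grem1, a secreted BMP antagonist, changed sign: 452 against 630 CPM at 2 h (-0.47 ± 0.06, adjusted p = 3.74e-08) and 754 against 449 CPM at 24 h (0.71 ± 0.05, adjusted p = 3e-14). Scara5, a ferritin receptor, had 28.2, 10.4, 2.49 and 1.21 CPM with TGF-β and 29.4, 28.9, 16.1 and 19.95 CPM without, which gave -4.02 ± 0.31 at 24 h (adjusted p = 7.81e-14).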

How the data were processed

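The authors deposited 1 table of raw read counts per gene for the 48 libraries (49671 genes), aligned with HISAT to GRCm38 per the submitters' processing notes; no source used here names the counting program or its strand setting, so overlapping and antisense genes and near-identical copies are uncertain. Counts were used as deposited. With edgeR 4.0.16 in R 4.3.3, genes passing filterByExpr (minimum count 10, minimum total 15; 12203 genes) were normalised by TMM and tested by quasi-likelihood with robust dispersion and Benjamini-Hochberg adjustment over all genes. The mean over durations was fitted on all 48 libraries with stimulus and duration as terms (33 residual degrees of freedom); the change with duration added a slope on log2 hours (22); each single duration used the 16 libraries of TGF-β, no cytokine, IL-2 and lymphotoxin (8), the last 2 taken as controls because earlier results of these data showed them close to unstimulated. Lone TGF-β libraries were assumed to vary like the controls. CPM of genes and of lists tested use TMM-scaled library sizes and those of marker sums the unscaled total counts; log2 ratios between paired libraries add a prior count of 2. Libraries were grouped by the stimulus label and paired by the hours. The members, the 27 gene lists and the tests were chosen with earlier results of these data known. Genes named were list members, the 15 largest called each way on the mean (at least 5 CPM, same sign at all durations) and the 10 largest each way per duration and slope; some of these genes are not reported here. The promoter sequences come from RefSeq, GRCm38.p6. Alternatives were DESeq2 1.42.0, other filters, references and terms, and leaving out each library; the fits were tested on simulated counts. Total counts ranged from 5612907 to 9663207 in the 48 libraries, and this limits the precision for low genes.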

Additional observations from a re-analysis of the deposited data

Results flagged for a closer look

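Of 165 groups of 4 values tested for a value standing apart from the other 3, 8 passed Dixon's test, about the 1 in 20 that chance gives. In 7 of them the value at 24 h stood apart from the other durations: the log2 ratio of TGF-β to unstimulated was -1.18 for Irf7, -1.17 for Isg15, -1.66 for Psmb8, -1.01 for Usp18, -0.96 for Col3a1 and 1.48 for Smad7, and the median over the interferon receptors and signalling genes was -0.106. In the other, the 2 h ratio of Tgfbr3, -0.024, stood apart from the later durations.

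The difference between TGF-β and no cytokine changed with duration, by the slope test, in 182 genes, a count that single libraries move. Among the genes named, the slopes per doubling of hours were positive for Mmp12 (1.17), Ctla2a (0.82), Fbln2 (0.76), Whrn (0.70), Nt5e (0.52), Cdh5 (0.50), Id3 (0.46), Ltbp4 (0.44) and Fn1 (0.41). Smaller positive slopes were found for Grem1 (0.32), Col18a1 (0.315), Itgb3 (0.26), Bmp1 (0.18), Tagln2 (0.17) and Itgb1 (0.15). Slopes were negative for Dcdc2a (-1.02), Scara5 (-0.92), Gpnmb (-0.37), Thbs2 (-0.33), Bcl6 (-0.32), Tgfb3 (-0.27) and Tgif1 (-0.16). Of these 22 slope calls, 14 were lost without the TGF-β 24 h library, among them Itgb3 (0.13, adjusted p = 0.537), Cdh5 (0.29, adjusted p = 0.641) and Fn1 (0.27, adjusted p = 0.558). Without the TGF-β 2 h library 11 were lost, among them Nt5e (0.33, adjusted p = 0.657) and Scara5 (-1.49, adjusted p = 0.107). Without the unstimulated 2 h library 19 were lost, among them Tgfb3 (-0.16, adjusted p = 0.845). Without the TGF-β 2 h library the slopes of Dcdc2a (-1.60), Itgb3 (0.46) and Tgfb3 (-0.46) kept their calls and moved by over 1.5 times. Only Dcdc2a, Fbln2 and Gpnmb kept the slope call when any 1 of the 8 libraries was left out. Cdh5, the vascular cadherin, had 5.57, 7.86, 9.84 and 26.2 CPM with TGF-β and 4.88, 3.58, 4.50 and 6.48 CPM without, and set the summed level of the endothelial markers.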

How the results depend on the processing

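For the mean over durations, 1010 genes were called. The count was 1590 with the 16 libraries of TGF-β, no cytokine, IL-2 and lymphotoxin alone, 241 without the replicate block, that is, the duration term that pairs the libraries, and 347 with the 2 h and 6 h libraries alone. Of the direct targets, 18 were called higher and 6 without the block; of the feedback inhibitors, 9 were called and 5 without the block or with the 2 h and 6 h libraries alone. For the change with duration, 182 genes were called, 472 with the 16 libraries alone and 17 when the 12 h and 24 h libraries were set against the 2 h and 6 h ones in place of a slope. Leaving out single libraries gave 17 (without unstimulated 2 h) to 220 genes (without TGF-β 6 h). In the same test the genes called lower numbered 0 to 6 in the type I interferon list, 0 to 1 in the type II list and 0 to 1 in the MHC class I list over the left-out libraries, the highest counts all without TGF-β 12 h. DESeq2 called 1 gene in each of the type I and type II lists, and the MHC class I list had 1 with IL-2 as the reference and 1 with the 16 libraries alone. At single durations DESeq2 called 547, 713, 859 and 1293 genes at 2, 6, 12 and 24 h against 1069, 1244, 1523 and 2082 by edgeR. The causes were not tested.

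Over 185 single-gene results and 2265 alternative values, 1955 kept their status as called or not called, 307 lost the call and 3 gained it. Where either fit made a call, 0 changed sign. Under every alternative run 90 of the 185 kept their status. Results that were never called, such as Fn1 at 2 h, are counted among those kept. No alternative for a single duration left out its lone TGF-β library. Fitted on the 8 compared libraries alone, still paired by duration, the mean called 841 genes. That fit leaves fewer residual degrees of freedom and takes its spread from these 8 libraries alone. Mmp12, Fbln2, Col7a1, Nt5e, Id1 and Thbs1 lost their mean calls in it in edgeR, and the cause was not tested. The mean call for Fn1 was lost without the TGF-β 24 h library (0.46, adjusted p = 0.308). Of 22 genes named for their slope, 3 kept the call without any 1 library. At these depths genes near the count minimum of 10 carry the widest errors.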

Other observations

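Other gene lists were also counted; over all genes edgeR called 5.02% higher and 3.25% lower on the mean, and 8.42% and 8.64% at 24 h. Among 19 hypoxia and glycolysis genes tested, 2 were higher and 1 lower on the mean, and 3 were higher and 8 lower at 24 h. The lower genes at 24 h included the glycolytic enzymes Ldha, with 899 against 1262 CPM (-0.43 ± 0.06, edgeR adjusted p = 8.36e-07), Aldoa, with 1003 against 1342 CPM (-0.40 ± 0.06, adjusted p = 6.54e-07), and Pkm, with 1847 against 2320 CPM in the unstimulated library (-0.31 ± 0.05, adjusted p = 4.95e-06). Ndrg1, a stress-induced gene of the same list, went the other way, with 0.69 ± 0.14 on the mean (adjusted p = 0.00059). Of 25 integrated stress response genes, 1 was higher and 2 lower on the mean: Ddit4, an inhibitor of mTORC1 signalling, had 40.5, 34.2, 54.3 and 89.3 CPM with TGF-β and 23.7, 15.3, 27.2 and 30.3 CPM without (1.14 ± 0.22, adjusted p = 0.000328), Stc2 fell by 0.78 and Phgdh by 0.31 on the log2 scale.

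Of 30 immediate early genes, 2 were higher and 3 lower on the mean (all genes: 5.02% and 3.25%). Dusp1 and Dusp5, both phosphatases of MAP kinases, moved in opposite directions: Dusp1 had 44.4, 41.2, 22.7 and 17.2 CPM with TGF-β and 97.2, 70.0, 36.7 and 35.9 CPM without (-0.91 ± 0.17, adjusted p = 0.000223), and Dusp5 had 241, 176, 183 and 215 CPM with and 116, 97.2, 107 and 100.4 CPM without (0.95 ± 0.11, adjusted p = 2.88e-08). Of 28 NF-kB pathway genes edgeR called 0 on the mean (1 at an unadjusted p under 0.05; DESeq2 called 0), and 1 was higher and 6 lower at 24 h (all genes: 8.42% and 8.64%); of those 6, Cxcl10, Ccl2 and Ccl5 are also interferon-response or chemokine genes. Ccl2, a monocyte chemokine, had 9.01 CPM at 24 h against 22.7, 22.5 and 21.7 CPM in the controls (-1.30 ± 0.18, adjusted p = 4.27e-07), and the call for Ccl5 was lost under DESeq2 (-0.63). Of 22 cholesterol synthesis genes edgeR called 0 on the mean (3 at an unadjusted p under 0.05; DESeq2 called 0).

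Some low genes had no count in the TGF-β library at 24 h. Agtr2, an angiotensin receptor, had 0 counts against 17, 25 and 28 in the unstimulated, IL-2 and lymphotoxin libraries, at least 7.14-fold lower against a floor of 3 counts (0.403 CPM) in that library. Ly6c1 was at least 4.83-fold lower on the same floor and Il6, a cytokine, with 0 counts against 9, 11 and 8, at least 2.88-fold lower. Vcam1, an adhesion molecule, was read at 0.134 CPM at 24 h, against 4.41, 4.26 and 4.36 CPM. For Ifnb1 the floor gave at least 1.85-fold. Tfpi2, an inhibitor of plasmin, was near 0 without TGF-β and had 1.81, 5.20, 8.26 and 12.0 CPM with it. These genes were singled out after their values were seen.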
